A study of Homo sapiens with 12 samples.

Results

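Long noncoding RNA genes were followed in MDA-MB-468 cells, a human breast cancer cell line that is triple-negative and basal in type, across inhibition of AKT, of EZH2 and of both. Members were the genes whose symbol names a small nucleolar RNA host (SNHG and a number), a microRNA host (MIR, a name and HG) or an intergenic noncoding RNA (LINC and a number), plus GAS5, MALAT1, NEAT1, H19, HOTAIR and MEG3, with at least 10 reads summed over the 12 libraries. Of 23228 genes counted, 24 had such a symbol and 22 had enough reads. MEG3 with 7 reads and MIR155HG with 8 reads lay just outside that limit, and MIR497HG with 17 reads lay just inside it. No symbol of the LINC form was present, because the annotation used for counting carries the older NCRNA names. The members are 12 hosts of small nucleolar RNAs (GAS5, SNHG1 and SNHG3 to SNHG12), 7 hosts of microRNAs (H19, MIR17HG, MIR100HG, MIR181A2HG, MIR210HG, MIR497HG and MIRLET7BHG), the nuclear RNAs MALAT1 and NEAT1, and HOTAIR.

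There were 4 groups of 3 poly(A) RNA libraries, named A, B and C. Combination cells received 5 µM ipatasertib, an AKT inhibitor, and 5 µM tazemetostat, an EZH2 inhibitor; Ipatasertib cells and Tazemetostat cells received 1 of these drugs at the same dose; DMSO cells received the solvent. Exposure to tazemetostat or to DMSO began on day -5; on day 0 ipatasertib was added where given, all groups were moved to 2% serum, and cells were harvested after 24 h. All cells are of 1 line, and nothing in the labels states whether libraries A, B and C come from separate cultures, so p-values reflect only the spread among them, which may be technical.

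Long noncoding RNA genes give transcripts that act as RNA or whose introns carry smaller RNAs. Small nucleolar RNAs guide the chemical modification of ribosomal RNA and are cut from introns of host genes; several hosts make a spliced RNA that is itself unstable, and many start with a terminal oligopyrimidine tract, a feature of ribosomal protein genes whose translation depends on growth signalling through AKT and mTOR. GAS5 takes its name from its accumulation in growth-arrested cells. NEAT1 is the scaffold of paraspeckles, MALAT1 sits in nuclear speckles, and HOTAIR, made from the HOXC cluster, is best known for its described binding to Polycomb repressive complex 2, whose catalytic subunit EZH2 is the target of tazemetostat.

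Reads in genes ranged from 12981622 to 17948209 per Combination library, 18926477 to 25468348 per Ipatasertib library, 19023947 to 26070000 per Tazemetostat library and 22682755 to 28746965 per DMSO library. Levels are given in CPM, the count scaled by the library's reads in genes and its TMM factor, and 3 reads correspond to 0.106 to 0.228 CPM. CPM is not corrected for transcript length, so levels are compared between groups for 1 gene and never between genes. In each group library A differed more from B and C (chi-square per degree of freedom 4.18 to 14.7) than B from C (2.35 to 3.47), so the counts of changed members are also given without the A libraries. All listed basal markers were detected: EGFR at 1000 to 2630, KRT5 at 421 to 1780, KRT17 at 238 to 378 and KRT14 at 78.6 to 226 CPM. KRT6B was at 21.8 to 55.4 and VIM at 16.2 to 68.6 CPM. From DMSO to Combination the mean of KRT5 went from 1720 to 443, of KRT14 from 220 to 84.5 and of VIM from 20.3 to 62.7 CPM. The part of these shifts in the results was not tested. The hormone receptor genes were low (ESR1 at 1.11 to 2.09 CPM and PGR at 0 to 0.105 CPM). Summed over 4 leukocyte markers, the level stayed at or under 0.766 CPM in every library. The sum over 3 endothelial markers was 3.87 to 4.99 CPM in Combination libraries and 0.454 to 0.926 CPM in DMSO libraries. It was 1.49 to 1.79 CPM in Ipatasertib and 1.12 to 1.49 CPM in Tazemetostat libraries. Mean CDH5 went from 0.15 CPM in DMSO to 3.82 CPM in Combination libraries. Between the same groups VWF went from 0.254 to 0.355 and PECAM1 from 0.351 to 0.0717 CPM, so the higher sum was mainly CDH5. The part of this in the results was not tested. Over 4 fibroblast markers the sum was 9.25 to 10.9 CPM in Combination and 5.05 to 5.45 in Ipatasertib libraries. The same sum was 15.2 to 18.9 CPM in Tazemetostat and 9.61 to 11.6 in DMSO libraries. Most of it was COL1A1, with means of 8.28, 5.16, 14.4 and 10.7 CPM in these 4 groups in order. The part of the fibroblast markers was not tested either. Reads outside annotated genes made up 24.34 to 26.22% of the counted total in Combination, 22.26 to 24.27% in Ipatasertib, 19.79 to 22.97% in Tazemetostat and 18.25 to 21% in DMSO libraries.

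Starts of the small nucleolar RNA hosts are shown because 9 of the 12 rose with ipatasertib and 8 fell with tazemetostat. Of all tested genes 24.0% rose with ipatasertib and 21.3% fell with tazemetostat. A further reason is that the tract at the start is the feature they are known to share with ribosomal protein genes. The sequences are RefSeq start-site windows on GRCh38.p14, 25 bases before to 25 bases from the annotated start, on the strand of the gene; capitals mark a run of C and T of at least 5 bases that opens with C within 5 bases of the start. The counts themselves were made on another build, hg19.
SNHG12, chr1:28581849-28581898, minus strand: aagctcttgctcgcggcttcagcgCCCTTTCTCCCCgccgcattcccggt
SNHG4, chr5:139274076-139274125, plus strand: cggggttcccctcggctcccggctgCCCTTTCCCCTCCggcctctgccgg
SNHG8, chr4:118278737-118278786, plus strand: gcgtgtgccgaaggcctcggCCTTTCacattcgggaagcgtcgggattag
SNHG5, chr6:85678709-85678758, minus strand: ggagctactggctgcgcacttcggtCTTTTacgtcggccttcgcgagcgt
SNHG7, chr9:136728160-136728209, minus strand: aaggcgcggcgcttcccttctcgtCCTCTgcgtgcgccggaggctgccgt
SNHG1, chr11:62855861-62855910, minus strand: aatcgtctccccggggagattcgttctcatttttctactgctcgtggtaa
GAS5, chr1:173869021-173869070, minus strand: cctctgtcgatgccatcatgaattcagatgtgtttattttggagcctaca

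Of the 12 hosts, 10 matched a window, and 5 of those 10 held such a run: SNHG4 (13 bases), SNHG12 (12), SNHG8 (6), SNHG5 (5) and SNHG7 (5). The windows of GAS5, SNHG1, SNHG3, SNHG10 and SNHG11 did not hold it at the annotated start. SNHG1 opened with a run of 3 bases, short of the 5 required. Each of these genes had 1 window, so a tract at another start would be missed, as would a run broken by another base. It was present in 15 of 20 matched protein-coding hosts of small nucleolar RNAs, each scored by its longest run over all annotated starts. Counted per start, it was present in 21.1% of 35116 RefSeq promoters, so these shares are unlike measures. The run is a description of these letters; whether it acts in these cells was not measured.

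The mature microRNAs encoded within the microRNA hosts are shown because they are the best-known products of these genes. They were not measured: poly(A) libraries count the host RNA, and of the 20 rows for microRNA genes inside members only 1 reached 10 reads and none was tested. Sequences are from RefSeq (GRCh38.p14), with the seed, bases 2 to 8, in capitals. The miR-17 and miR-20a seeds are the same, as are those of miR-19a and miR-19b and those of let-7a and let-7b.
hsa-miR-17-5p (MIR17HG): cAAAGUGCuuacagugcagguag
hsa-miR-20a-5p (MIR17HG): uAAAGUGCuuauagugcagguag
hsa-miR-18a-5p (MIR17HG): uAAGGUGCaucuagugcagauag
hsa-miR-19a-3p (MIR17HG): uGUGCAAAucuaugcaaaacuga
hsa-miR-19b-3p (MIR17HG): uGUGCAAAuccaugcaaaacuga
hsa-miR-92a-3p (MIR17HG): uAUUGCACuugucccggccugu
hsa-let-7a-5p (MIRLET7BHG): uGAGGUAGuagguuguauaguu
hsa-let-7b-5p (MIRLET7BHG): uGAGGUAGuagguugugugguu
hsa-miR-210-3p (MIR210HG): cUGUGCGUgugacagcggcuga
hsa-miR-675-5p (H19): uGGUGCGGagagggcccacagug

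Of the 22 members, 20 passed the filter on low counts and were tested; MIR100HG and MIR497HG did not pass it. Against DMSO, 11 of the 20 rose and 6 fell in Combination cells, where 34.4% of all 14571 tested genes rose and 30.0% fell. In Ipatasertib cells 11 rose and 4 fell, against 24.0% and 23.1% of all tested genes. In Tazemetostat cells 1 rose and 12 fell, against 25.9% and 21.3% of all tested genes. The median log2 fold change of the tested members was 0.34 in Combination, 0.40 in Ipatasertib and -0.39 in Tazemetostat cells, where the medians of all tested genes were 0.030, 0.004 and 0.009. Without the A libraries, 8 rose and 6 fell in Combination cells, 10 rose and 4 fell in Ipatasertib cells, and 11 fell in Tazemetostat cells, where NEAT1 no longer passed. These 3 comparisons share the DMSO libraries. Libraries did not overlap those of DMSO for 17 of the 20 members in Combination, 16 in Ipatasertib and 16 in Tazemetostat cells. Of all tested genes 68.7%, 58.9% and 56.8% did not overlap in the same comparisons. A call is an edgeR quasi-likelihood test with Benjamini-Hochberg adjusted p under 0.05 over all tested genes. In bulk RNA, a lower level per cell and fewer cells with the RNA cannot be told apart.

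**Figure D1:**
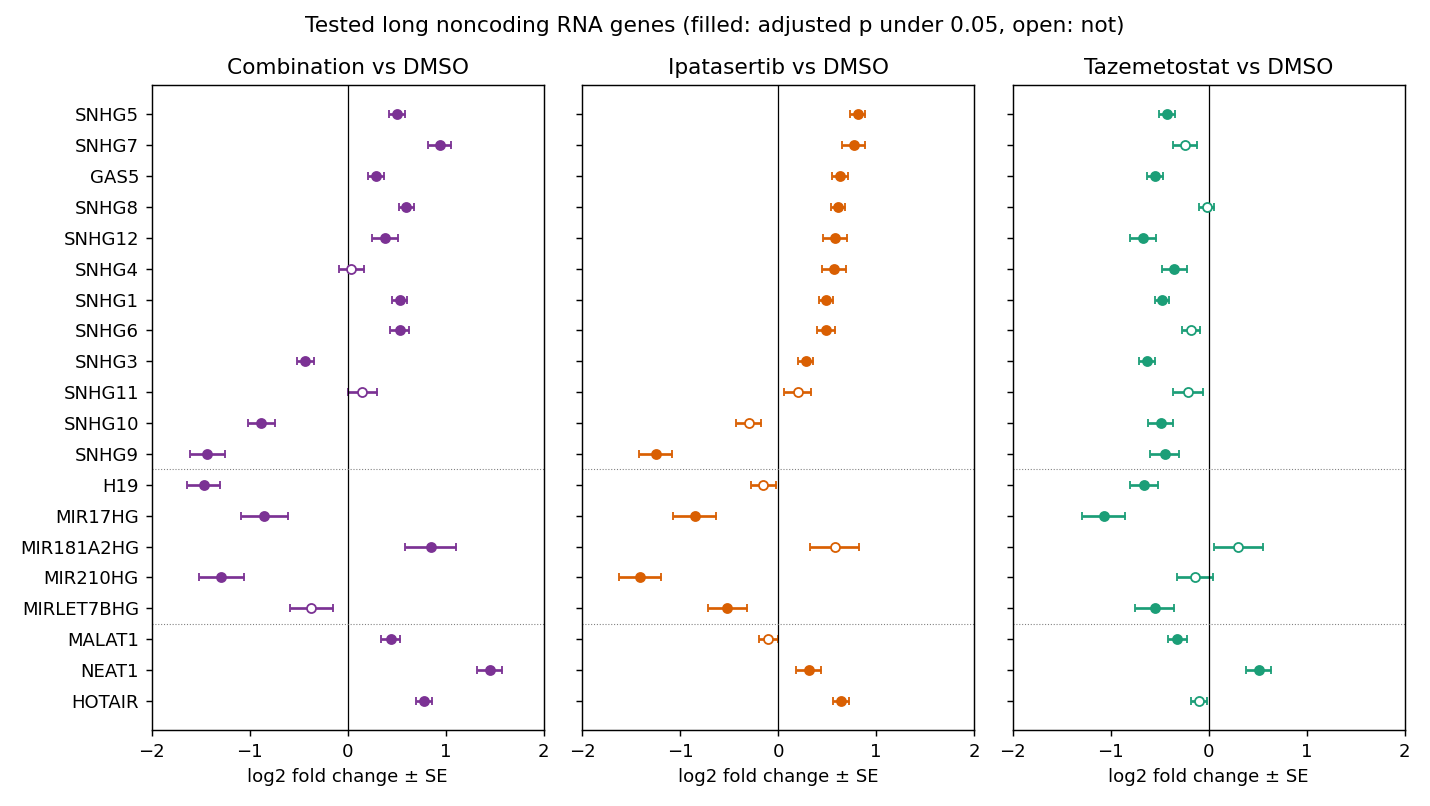
Log2 fold change against DMSO (x axis, ± SE of the edgeR fit over 12 libraries) of the 20 tested members in Combination, Ipatasertib and Tazemetostat cells, with filled points for adjusted p under 0.05; dotted lines part the 12 small nucleolar RNA hosts, 5 microRNA hosts and the last 3 genes. With ipatasertib 9 of the 12 small nucleolar RNA hosts lie to the right of 0 and pass, and with tazemetostat 8 lie to the left and pass. Of all tested genes 24.0% rose with ipatasertib and 21.3% fell with tazemetostat.

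The hosts of small nucleolar RNAs mostly rose with ipatasertib and mostly fell with tazemetostat. With ipatasertib 9 of 12 rose and SNHG9 fell, with a median log2 fold change of 0.53, where 24.0% of all tested genes rose and 23.1% fell. With tazemetostat 8 of 12 fell and 4 did not pass, with a median of -0.44, where 21.3% of all tested genes fell. DESeq2 called 7 of these falls, without SNHG4 (-0.36, DESeq2 adjusted p = 0.066). With both drugs 7 rose and 3 fell, with a median of 0.34, where 34.4% of all tested genes rose and 30.0% fell. The 12 hosts took 0.0764 to 0.0833% of reads in genes in Combination libraries, 0.0769 to 0.0909% in Ipatasertib, 0.0428 to 0.0461% in Tazemetostat and 0.0548 to 0.0581% in DMSO libraries. These shares did not overlap between either ipatasertib-treated group and the 2 groups without ipatasertib, nor between Tazemetostat and DMSO.

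GAS5, whose introns hold 10 of the small nucleolar RNA genes counted here, stood at 179, 163 and 167 CPM in Combination libraries, 187, 235 and 221 CPM in Ipatasertib, 104, 87.4 and 92.7 CPM in Tazemetostat and 131, 144 and 141 CPM in DMSO libraries (A, B and C). The 4 groups did not overlap: Ipatasertib libraries were highest, then Combination, DMSO and Tazemetostat. The log2 fold change against DMSO was 0.29 ± 0.081 (SE) in Combination cells (edgeR adjusted p = 0.00334), 0.63 ± 0.080 in Ipatasertib cells (edgeR adjusted p = 1.66e-06) and -0.55 ± 0.081 in Tazemetostat cells (edgeR adjusted p = 8.84e-06). The 1 RefSeq window of GAS5 shown above held no such pyrimidine run at the annotated start, and other starts were not examined.

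SNHG1, the host of 8 counted small nucleolar RNA genes including SNORD22 and SNORD25, had 248, 264 and 262 CPM in Combination, 228, 269 and 258 CPM in Ipatasertib, 140, 119 and 125 CPM in Tazemetostat and 172, 185 and 180 CPM in DMSO libraries. The ipatasertib-treated groups overlapped each other and lay above DMSO, and all Tazemetostat libraries lay below DMSO. Its log2 fold change against DMSO was 0.53 ± 0.073 in Combination, 0.49 ± 0.073 in Ipatasertib and -0.48 ± 0.073 in Tazemetostat cells (edgeR adjusted p = 1.71e-06, 9.87e-06 and 1.35e-05). SLC3A2, a neighbour of SNHG1 in RefSeq that encodes an amino acid transporter subunit, rose less (log2 fold change 0.25 in Combination and 0.40 in Ipatasertib cells) and had 0.02 in Tazemetostat cells, which did not pass.

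SNHG5, which begins with the run CTTTT, had 77.5, 68.4 and 70.6 CPM in Combination, 77.7, 98.3 and 92.4 CPM in Ipatasertib, 38.9, 37.5 and 37.4 CPM in Tazemetostat and 49.8, 50.1 and 53.4 CPM in DMSO libraries. Every library with ipatasertib lay above every DMSO library, and every Tazemetostat library below. It rose 1.41-fold in Combination and 1.75-fold in Ipatasertib cells, and its Tazemetostat level was 0.742 times that of DMSO (edgeR adjusted p = 1.5e-05, 5.02e-08 and 0.000187). SNHG12, with the run of 12 bases, had the same order of means, with 11.5 ± 1.79 CPM in Combination, 13.3 ± 1.69 in Ipatasertib, 5.54 ± 0.52 in Tazemetostat and 8.87 ± 0.664 in DMSO libraries (SD, n = 3 each). Its rise in Combination cells (log2 fold change 0.38 ± 0.13, edgeR adjusted p = 0.0115) did not pass without the A libraries (0.21, edgeR adjusted p = 0.159).

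SNHG7 and SNHG8 rose with ipatasertib in both settings. SNHG7 had 84.7, 66.6 and 54.6 CPM in Combination, 53.4, 62.8 and 67.2 CPM in Ipatasertib, 28.9, 27.9 and 34.1 CPM in Tazemetostat and 34.2, 37.4 and 35.9 CPM in DMSO libraries; it rose 1.92-fold in Combination and 1.71-fold in Ipatasertib cells. SNHG8 averaged 47.1 ± 4.37 CPM in Combination, 47.2 ± 0.475 in Ipatasertib, 30.7 ± 0.641 in Tazemetostat and 31 ± 0.617 CPM in DMSO libraries (SD, n = 3 each). Its Tazemetostat and DMSO libraries overlapped, and the 95% interval of that log2 difference was -0.19 to 0.16. SNHG6 rose by a log2 fold change of 0.53 in Combination and 0.49 in Ipatasertib cells and had -0.18 in Tazemetostat cells (edgeR adjusted p = 2.88e-05, 0.000148 and 0.117).

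SNHG3 and SNHG4 rose with ipatasertib alone and not with both drugs. SNHG3 had 24.9, 22.2 and 24.1 CPM in Combination, 36.9, 39.2 and 40.3 CPM in Ipatasertib, 21.6, 19.2 and 21.6 CPM in Tazemetostat and 30.9, 30.8 and 34.3 CPM in DMSO libraries. It rose in Ipatasertib cells (log2 fold change 0.28 ± 0.078, edgeR adjusted p = 0.00561) and fell in Combination cells (-0.43 ± 0.084, edgeR adjusted p = 0.00012) and Tazemetostat cells (-0.63 ± 0.081, edgeR adjusted p = 1.69e-06). SNHG4 averaged 5.5 ± 0.656 CPM in Combination, 7.89 ± 0.319 in Ipatasertib, 4.15 ± 0.473 in Tazemetostat and 5.3 ± 0.423 CPM in DMSO libraries (SD, n = 3 each), and the Combination and DMSO libraries overlapped. SNHG3 overlaps RCC1, a regulator of nuclear transport, and SNHG4 overlaps MATR3, a nuclear matrix protein gene, in RefSeq. Reads of such overlapping pairs cannot be fully told apart, and whether counting used strand is not stated in the labels. RCC1 had log2 fold changes of -0.48 in Combination, 0.15 in Ipatasertib and -0.46 in Tazemetostat cells, of which the second did not pass, and MATR3 passed in none of the 3 comparisons.

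SNHG9, SNHG10 and SNHG11 did not rise. SNHG9 had 1.99, 1.9 and 1.6 CPM in Combination, 1.79, 2.78 and 1.81 CPM in Ipatasertib, 3.35, 3.73 and 3.74 CPM in Tazemetostat and 5.18, 5.36 and 4.41 CPM in DMSO libraries, so every treated library lay below every DMSO library. It fell by 1.43 on the log2 scale in Combination, by 1.25 in Ipatasertib and by 0.45 in Tazemetostat cells (edgeR adjusted p = 6.33e-07, 2.48e-06 and 0.0158), and the last did not pass without the A libraries (-0.38, edgeR adjusted p = 0.0657). RPS2, the ribosomal protein gene next to SNHG9 and itself a small nucleolar RNA host, had log2 fold changes of -0.07, 0.24 and -0.25 in the same comparisons, of which the first did not pass. SNHG10 averaged 4.57 ± 1.04 CPM in Combination, 6.85 ± 0.219 in Ipatasertib, 6.01 ± 0.444 in Tazemetostat and 8.47 ± 0.943 CPM in DMSO libraries (SD, n = 3 each). SNHG10 fell in Combination and Tazemetostat cells (log2 fold change -0.88 and -0.49) and had -0.30 in Ipatasertib cells (edgeR adjusted p = 0.0523). GLRX5, a gene of iron-sulphur cluster assembly next to SNHG10, fell in all 3 comparisons (-0.45, -0.39 and -0.47). SNHG11 passed in none, with log2 fold changes between -0.21 and 0.20.

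**Figure D2:**
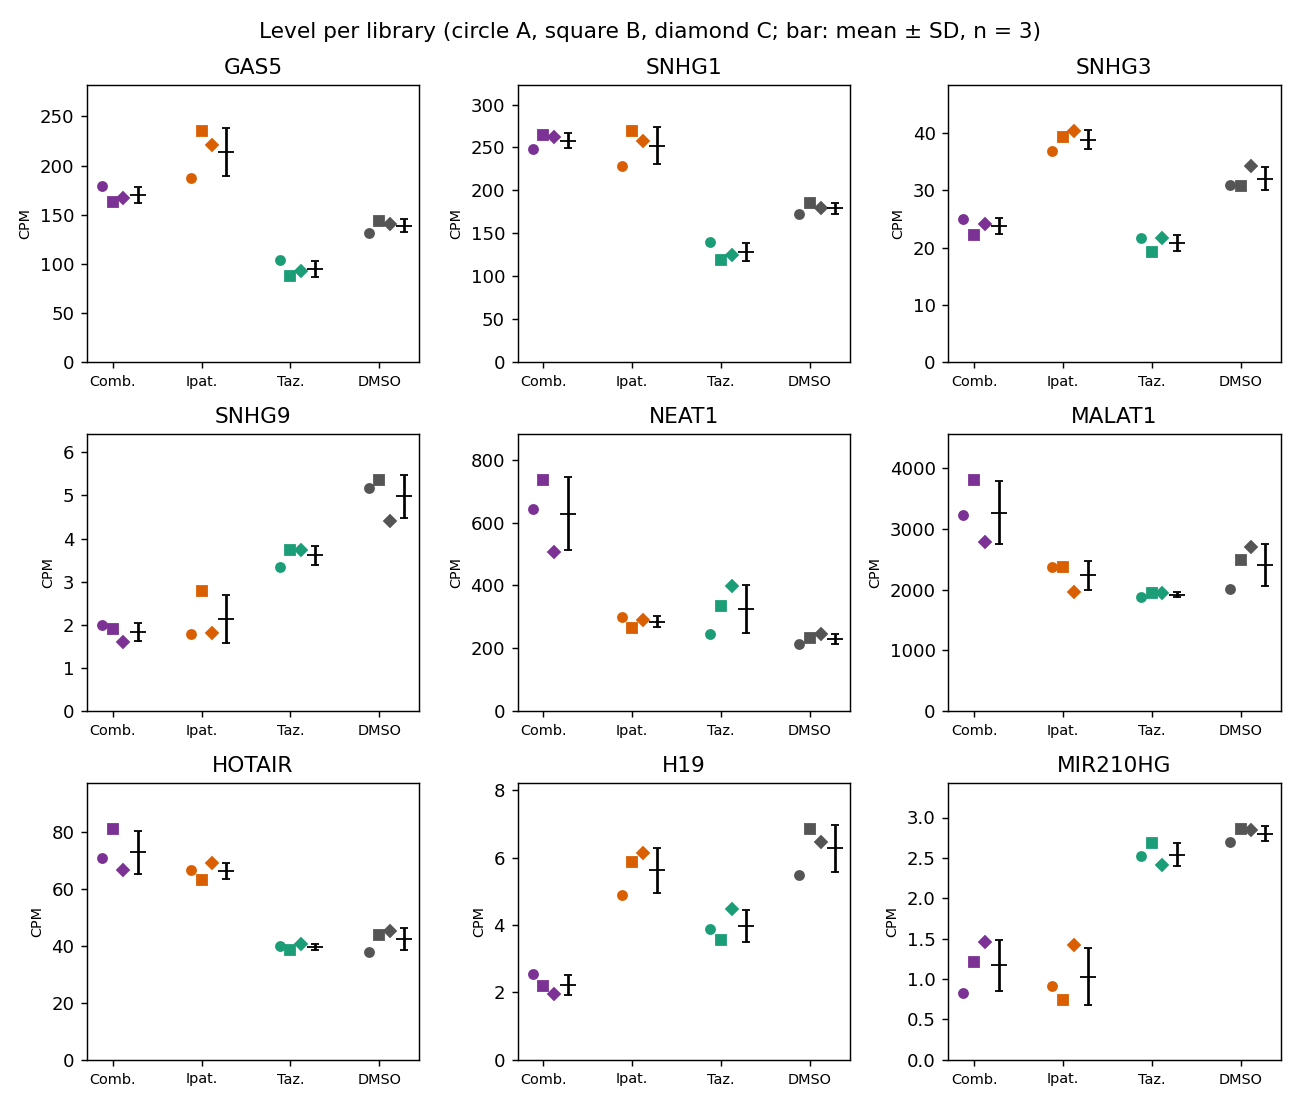
Level in CPM (y axis, from 0) of 9 members in each library of the Combination, Ipatasertib, Tazemetostat and DMSO groups, with the mean ± SD of 3 libraries beside the points. GAS5 is highest in Ipatasertib libraries (187 to 235 CPM), NEAT1 in Combination libraries (506 to 736 CPM), and H19 is lowest in Combination libraries (1.95 to 2.55 CPM).

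The tested small nucleolar RNA genes inside these hosts had mostly negative fold changes with each treatment. Some of them reached the filter on low counts mainly through DMSO libraries, which favours falls against DMSO among the tested rows. SNORD74 had 46 reads in DMSO, 24 in Tazemetostat, 17 in Ipatasertib and 6 in Combination libraries. SNORD50B had 50, 21, 17 and 12 reads in the same order. The counts of these rows are therefore a description. RefSeq lists 37 of them, 32 are counted in the files, and only 9 had enough reads for a test; the libraries were made from poly(A) RNA, which holds few small nucleolar RNAs. With ipatasertib 1 of the 9 rose and 4 fell by edgeR, with a median log2 fold change of -0.51, whereas DESeq2 called 1 rise and no fall; of all tested genes 24.0% rose and 23.1% fell by edgeR. With tazemetostat 6 fell by edgeR and 2 by DESeq2, where 21.3% of all tested genes fell by edgeR. With both drugs 1 rose and 4 fell by edgeR and 1 rose and 3 fell by DESeq2, where 34.4% of all tested genes rose and 30.0% fell by edgeR. SNORD80, in GAS5, had 1.27, 1.37 and 1.11 CPM in Combination, 2.27, 2.72 and 2.09 CPM in Ipatasertib, 0.996, 1.68 and 1.5 CPM in Tazemetostat and 3.48, 3.36 and 2.89 CPM in DMSO libraries. All treated libraries lay below all DMSO libraries, while GAS5 itself was above DMSO in both ipatasertib-treated groups. The log2 fold change of SNORD80 was -1.37 in Combination, -0.47 in Ipatasertib and -1.18 in Tazemetostat cells (edgeR adjusted p = 8.5e-06, 0.0302 and 2.3e-05). SNORD25, in SNHG1, was the row that rose, with a log2 fold change of 0.51 in Combination and 0.68 in Ipatasertib cells (edgeR adjusted p = 0.0109 and 0.001). Whether reads on these rows come from the small RNA or from the unspliced host RNA was not tested.

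Further gene groups of the same pathway were set beside the hosts; the lists come from textbook knowledge. Their counts stand against the shares of all tested genes, of which 34.4% rose and 30.0% fell in Combination, 24.0% and 23.1% in Ipatasertib, and 25.9% and 21.3% in Tazemetostat cells. Of 23 tested protein-coding genes that also carry small nucleolar RNAs in their introns, mostly ribosomal protein and translation factor genes, 6 rose and 5 fell in Combination cells, 16 rose and 2 fell in Ipatasertib cells, and 16 fell and 7 did not pass in Tazemetostat cells. The shares in Combination cells are below those of all tested genes in both directions. Their medians on the log2 scale were -0.03, 0.23 and -0.30. EEF2, the elongation factor, rose by 0.45 in Combination and 0.88 in Ipatasertib cells and had -0.16 in Tazemetostat cells, which did not pass, and RPL3 rose by 0.30 in Combination and 0.75 in Ipatasertib cells. NCL and NOP56, which encode nucleolar proteins, were the 2 that fell with ipatasertib (log2 fold changes -0.21 and -0.33). Ribosomal protein genes have many processed copies in the genome, so their counts are uncertain. The 8 core proteins that bind small nucleolar RNAs, including the methyltransferase FBL and the pseudouridine synthase DKC1, mostly fell: 8 in Combination, 5 in Ipatasertib and 7 in Tazemetostat cells, with medians of -0.62, -0.26 and -0.53. Among 10 factors of nonsense-mediated decay, the pathway that degrades several host RNAs, 1 rose and 4 fell in Combination, 3 rose and 4 fell in Ipatasertib and 1 rose and 3 fell in Tazemetostat cells, where 30.0%, 23.1% and 21.3% of all tested genes fell. UPF3B fell in all 3 comparisons (log2 fold changes -0.83, -0.78 and -0.61).

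**Figure D3:**
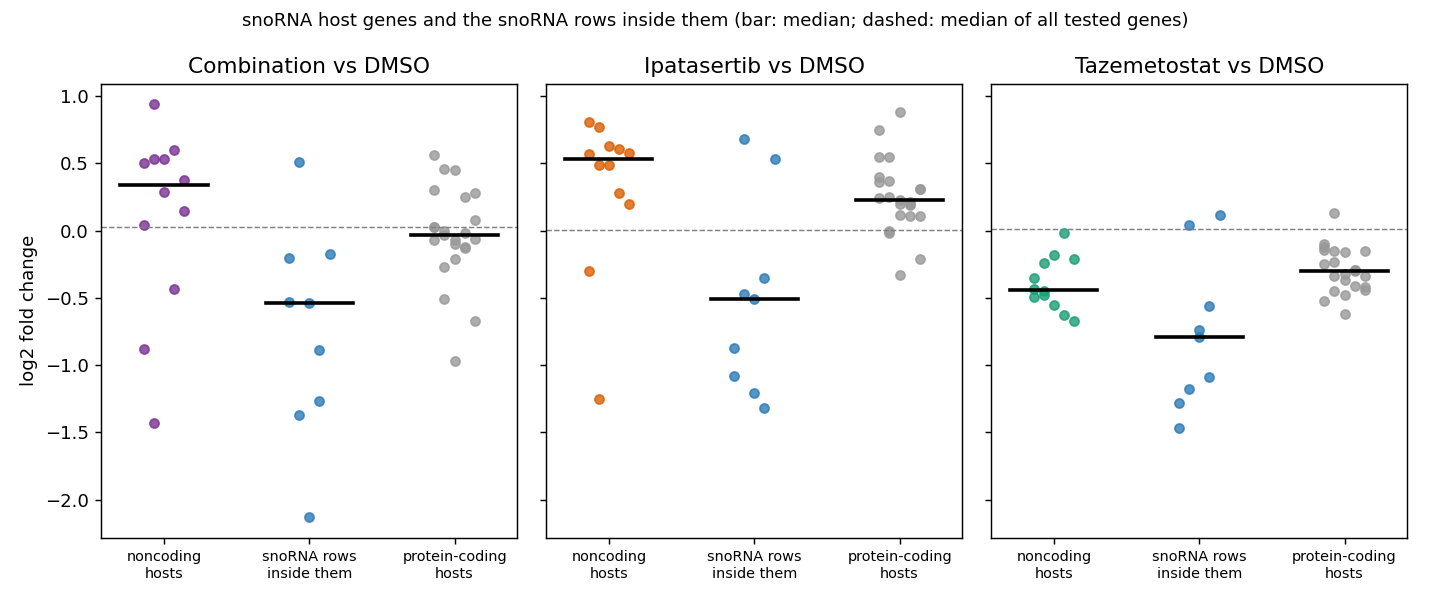
Log2 fold change against DMSO (y axis) of the tested noncoding small nucleolar RNA hosts, of the small nucleolar RNA rows inside them and of the protein-coding hosts, in Combination, Ipatasertib and Tazemetostat cells; bars are list medians and the dashed line is the median of all tested genes. With ipatasertib the medians are 0.53, -0.51 and 0.23 for the 3 lists, and with tazemetostat -0.44, -0.79 and -0.30. Some small nucleolar RNA rows passed the filter on low counts mainly through DMSO libraries, which favours falls among them.

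NEAT1, the paraspeckle scaffold, rose with both drugs together. It had 644, 736 and 506 CPM in Combination, 301, 265 and 289 CPM in Ipatasertib, 246, 334 and 397 CPM in Tazemetostat and 212, 232 and 244 CPM in DMSO libraries. Every Combination library lay above every other library, and Ipatasertib and Tazemetostat libraries each lay above DMSO. The rise was 2.74-fold in Combination cells (log2 fold change 1.45 ± 0.13, edgeR adjusted p = 2.19e-09). In Ipatasertib cells the log2 fold change was 0.31 ± 0.13 (edgeR adjusted p = 0.0482), which did not pass with the replicate letter as a block (0.32, edgeR adjusted p = 0.0528) or by DESeq2 (adjusted p = 0.181). In Tazemetostat cells it was 0.51 ± 0.13 (edgeR adjusted p = 0.00245), and 0.62 without the A libraries, where it did not pass (edgeR adjusted p = 0.0613). Reads outside annotated genes were also most frequent in Combination libraries, as given above, and their part in the NEAT1 and MALAT1 results was not tested.

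Most of the 9 genes of paraspeckle proteins listed as partners of NEAT1 fell. In Combination cells 7 fell and 2 did not pass, in Ipatasertib cells 1 rose and 6 fell, and in Tazemetostat cells 8 fell and 1 did not pass, where 30.0%, 23.1% and 21.3% of all tested genes fell. NONO was the 1 that rose with ipatasertib (log2 fold change 0.25). RBM14 had -1.13 in Combination, -0.55 in Ipatasertib and -0.38 in Tazemetostat cells (log2 fold changes, all past the threshold).

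MALAT1, which sits in nuclear speckles, had 3230, 3810 and 2780 CPM in Combination, 2380, 2370 and 1960 CPM in Ipatasertib, 1880, 1940 and 1940 CPM in Tazemetostat and 2020, 2490 and 2700 CPM in DMSO libraries. Combination libraries were all above DMSO, Tazemetostat libraries all below it, and Ipatasertib and DMSO libraries overlapped. The log2 fold change was 0.44 ± 0.10 in Combination cells (edgeR adjusted p = 0.000702), -0.10 ± 0.10 in Ipatasertib cells (edgeR adjusted p = 0.434) and -0.32 ± 0.10 in Tazemetostat cells (edgeR adjusted p = 0.0128). Without the A libraries the first and the last did not pass (0.34 and -0.42, edgeR adjusted p = 0.17 and 0.121), and the last did not pass without DMSO library C (-0.24, edgeR adjusted p = 0.0983). Of 7 nuclear speckle proteins, 5 fell in Combination, 5 in Ipatasertib and 6 in Tazemetostat cells, where 30.0%, 23.1% and 21.3% of all tested genes fell. The splicing factor SRSF2 was among them (log2 fold changes -0.82, -0.51 and -0.63).

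HOTAIR rose with ipatasertib, with or without tazemetostat. It had 71, 81.1 and 66.5 CPM in Combination, 66.8, 63.2 and 69 CPM in Ipatasertib, 39.8, 38.6 and 40.6 CPM in Tazemetostat and 38, 44 and 45.4 CPM in DMSO libraries. The ipatasertib-treated groups lay above Tazemetostat and DMSO with no overlap, and Tazemetostat overlapped DMSO. The rise was 1.71-fold in Combination and 1.56-fold in Ipatasertib cells (edgeR adjusted p = 3.56e-08 and 1.35e-06), and the log2 fold change in Tazemetostat cells was -0.10 (95% interval -0.29 to 0.09, edgeR adjusted p = 0.346). HOXC11, which overlaps HOTAIR in RefSeq, passed in none of the 3 comparisons (log2 fold changes 0.05, 0.02 and 0.00). HOXC13, a nearby gene of the cluster, rose by 0.38 in Combination and 0.29 in Ipatasertib cells. Of 7 genes of Polycomb repressive complex 2, 2 rose and 5 fell in Combination, 1 rose and 2 fell in Ipatasertib, and 1 rose and 3 fell in Tazemetostat cells, where 30.0%, 23.1% and 21.3% of all tested genes fell. EZH2 fell by 0.65 in Combination and 0.48 in Ipatasertib cells and had -0.06 in Tazemetostat cells, which did not pass, and its homologue EZH1 rose by 0.78 and 0.77 in the first 2 groups. In Tazemetostat cells JARID2 rose by 0.34, and EED, RBBP7 and SUZ12 fell (log2 fold changes -0.22, -0.17 and -0.26).

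Of 5 tested microRNA hosts, 1 rose and 3 fell in Combination cells, 3 fell and 2 did not pass in Ipatasertib cells, and 3 fell and 2 did not pass in Tazemetostat cells, where 30.0%, 23.1% and 21.3% of all tested genes fell. DESeq2 called 2 falls in each of the single-drug comparisons. MIR17HG, the host of the miR-17 to miR-92a cluster that MYC activates, had 1.11, 1.37 and 1.11 CPM in Combination, 1.48, 1.12 and 0.946 CPM in Ipatasertib, 1.05, 1.05 and 0.956 CPM in Tazemetostat and 2.34, 1.64 and 2.37 CPM in DMSO libraries. Every treated library lay below every DMSO library. It fell by 0.85 on the log2 scale in Combination, 0.85 in Ipatasertib and 1.07 in Tazemetostat cells (edgeR adjusted p = 0.00352, 0.00248 and 0.000399), on 54 to 166 reads per group.

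MIR210HG, the host of miR-210, a microRNA known for its induction in hypoxia, fell with ipatasertib. It had 0.831, 1.21 and 1.46 CPM in Combination, 0.915, 0.747 and 1.42 CPM in Ipatasertib, 2.52, 2.69 and 2.41 CPM in Tazemetostat and 2.7, 2.86 and 2.85 CPM in DMSO libraries. The 6 libraries with ipatasertib lay below the 6 without it. Its level was 0.41 times that of DMSO in Combination and 0.377 times in Ipatasertib cells (edgeR adjusted p = 5.13e-05 and 1.46e-05), and the log2 fold change in Tazemetostat cells was -0.14 (95% interval -0.56 to 0.28, edgeR adjusted p = 0.554). RASSF7, the gene next to it, fell by 0.48 in Combination and 0.32 in Ipatasertib cells on the log2 scale. The 300-base RefSeq promoter of MIR210HG holds 1 copy of ACGTG, the core of the hypoxia response element, counting both strands. Of all RefSeq promoters 21.4% hold it. Among members, promoters of SNHG7 (2 copies), SNHG8, SNHG11 and MIRLET7BHG (1 copy each) and 1 of the 6 annotated starts of MIR100HG (1 copy) also hold it. Searched the same way, the E-box CACGTG, which contains ACGTG, was present in 7.26% of all promoters and among members in that of SNHG7, and the forkhead motif GTAAACA in 3.42% and in none of the member promoters examined.

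H19, an imprinted RNA that hosts miR-675, had 2.55, 2.2 and 1.95 CPM in Combination, 4.88, 5.87 and 6.15 CPM in Ipatasertib, 3.88, 3.55 and 4.49 CPM in Tazemetostat and 5.5, 6.86 and 6.48 CPM in DMSO libraries. Combination libraries lay below all others, Tazemetostat libraries below DMSO, and Ipatasertib overlapped DMSO. It fell by 1.47 on the log2 scale in Combination cells and by 0.66 in Tazemetostat cells (edgeR adjusted p = 1.07e-07 and 0.000534), and had -0.15 in Ipatasertib cells (edgeR adjusted p = 0.372). MRPL23, a mitochondrial ribosomal protein gene whose RefSeq span overlaps that of H19, fell in all 3 (log2 fold changes -0.79 in Combination, -0.53 in Ipatasertib and -0.43 in Tazemetostat cells).

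MIRLET7BHG, a let-7 host, averaged 1.77 ± 0.268 CPM in Combination, 1.62 ± 0.213 in Ipatasertib, 1.56 ± 0.368 in Tazemetostat and 2.34 ± 0.371 CPM in DMSO libraries (SD, n = 3 each). Its falls in Ipatasertib and Tazemetostat cells (log2 fold changes -0.52 and -0.55, edgeR adjusted p = 0.0395 and 0.0297) did not pass by DESeq2 (adjusted p = 0.0984 and 0.0793). MIR181A2HG averaged 1.63 ± 0.27 CPM in Combination, 1.38 ± 0.311 in Ipatasertib, 1.12 ± 0.141 in Tazemetostat and 0.922 ± 0.185 CPM in DMSO libraries (SD, n = 3 each). It rose in Combination cells (log2 fold change 0.85 ± 0.26, edgeR adjusted p = 0.00624), a call that did not pass without the A libraries (0.66, edgeR adjusted p = 0.0883). NR6A1, a nuclear receptor gene that overlaps MIR181A2HG, rose as well (0.75 in Combination, 0.85 in Ipatasertib and 0.53 in Tazemetostat cells).

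MIR100HG, the host of miR-100, let-7a-2 and miR-125b-1, was under the filter on low counts. It is a member only through its reads in Combination and Tazemetostat libraries, so its values are a description. It had 21 reads in Combination, 2 in Ipatasertib, 10 in Tazemetostat and 1 in DMSO libraries, or 0.499, 0.455 and 0.418 CPM in Combination libraries A, B and C and 0, 0 and 0.037 CPM in DMSO libraries. Relative to the reads in genes times the TMM factors, Combination stood at 35.6 times DMSO, Tazemetostat at 11 times and Ipatasertib at 2.3 times. These ratios rest on 1 DMSO read and on the same reads that made MIR100HG a member, so no interval or test is given. MIR497HG had 2 reads in Combination, 5 in Ipatasertib, 3 in Tazemetostat and 7 in DMSO libraries, and no difference was detectable at this depth.

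The effect of adding each drug to the other was read from Combination against each single drug. Against Tazemetostat, 11 of 20 members rose and 4 fell, where 23.2% of all tested genes rose and 23.1% fell. Of the 12 small nucleolar RNA hosts 8 rose and 2 fell, with a median log2 fold change of 0.67; SNHG7 rose 2.27-fold, SNHG12 2.07-fold, SNHG1 2.01-fold and GAS5 1.8-fold. Against Ipatasertib, 2 members rose and 6 fell, where 24.2% of all tested genes rose and 20.7% fell. NEAT1 (2.21-fold) and MALAT1 (1.46-fold) rose, and H19, SNHG3, SNHG10, SNHG4, GAS5 and SNHG5 fell, with log2 fold changes of -1.32, -0.71, -0.57, -0.53, -0.33 and -0.31. SNHG1, SNHG6, SNHG7 and SNHG8 did not pass against Ipatasertib; for SNHG8 the 95% interval of the log2 difference was -0.18 to 0.17. Without the A libraries, 11 rose and 4 fell against Tazemetostat and 2 rose and 7 fell against Ipatasertib. Libraries did not overlap for 18 of 20 members against Tazemetostat and 8 against Ipatasertib, beside 48.9% and 49.8% of all tested genes.

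**Figure D4:**
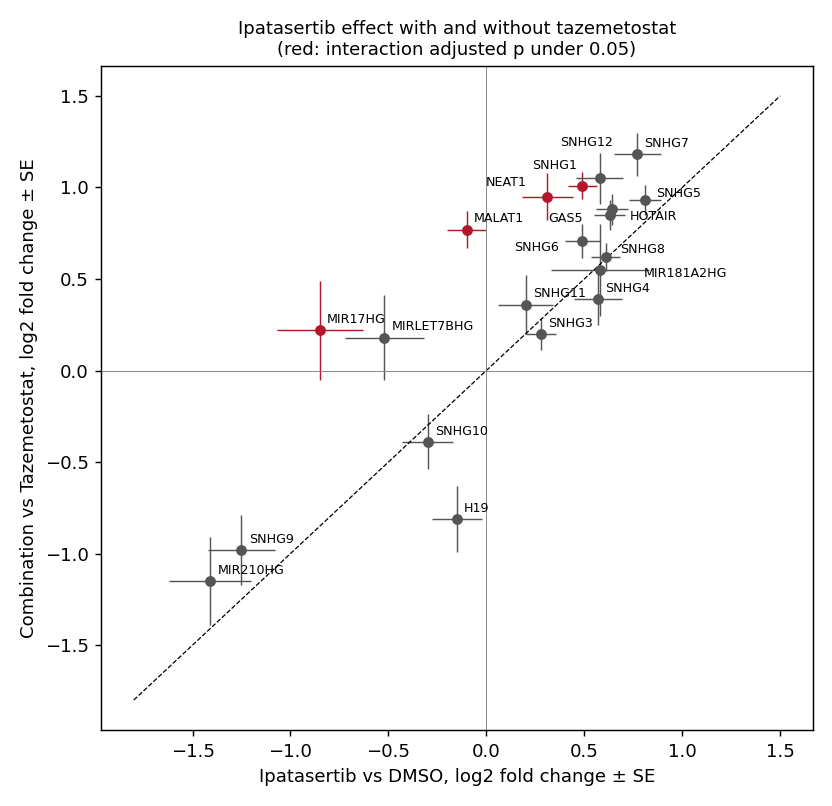
Log2 fold change of Combination against Tazemetostat (y axis) and of Ipatasertib against DMSO (x axis), each ± SE, for the 20 tested members; the comparisons share no library, the dashed line marks equal effects and red points passed the interaction test. SNHG1, NEAT1, MALAT1 and MIR17HG lie above the line, and MALAT1 has -0.10 on the x axis and 0.77 on the y axis.

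The interaction asks where the effect of both drugs differed, on the log2 scale, from the 2 single effects added. It passed upward for 4 of 20 members, where 5.96% of all tested genes passed upward and 6.01% downward. MALAT1 departed by 0.87 ± 0.15 (edgeR adjusted p = 0.00105), NEAT1 by 0.63 ± 0.18 (edgeR adjusted p = 0.026), SNHG1 by 0.52 ± 0.10 (edgeR adjusted p = 0.00409) and MIR17HG by 1.08 ± 0.35 (edgeR adjusted p = 0.0477). With the replicate letter as a block MIR17HG did not pass (1.06, edgeR adjusted p = 0.077). No member passed downward in the main edgeR fit, 1 did so at an unadjusted p under 0.05, and DESeq2 called none. H19 had -0.66 ± 0.23 (edgeR adjusted p = 0.0576). With library totals, with no filter, or under the filter of 50 counts in 3 libraries, 1 member passed downward. The same held without Combination library A and without Tazemetostat library A. MIR17HG averaged 1.2 ± 0.147 CPM in Combination, 1.18 ± 0.273 in Ipatasertib, 1.02 ± 0.0522 in Tazemetostat and 2.12 ± 0.416 CPM in DMSO libraries (SD, n = 3 each). DESeq2 called 2 of the members, and without the A libraries 5 passed upward and 1 downward.

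Intergenic RNAs that today carry LINC names are counted under older NCRNA symbols and so are not members. All rows with an NCRNA symbol, LINC genes or not, were looked up after their names were seen. Of 119 such rows, RefSeq lists 63 as older names of a current LINC gene, and 34 of the 119 were tested. The counts that follow cover all 34, and the LINC genes alone were not counted. In Combination cells 15 rose and 5 fell, in Ipatasertib cells 14 rose and 4 fell, and in Tazemetostat cells 5 rose and 5 fell, with medians of 0.27, 0.25 and 0.07 on the log2 scale. Of all tested genes 34.4% rose and 30.0% fell in Combination, 24.0% and 23.1% in Ipatasertib, and 25.9% and 21.3% in Tazemetostat cells. NCRNA00323, now LINC00323, had 16.3, 13.5 and 14.3 CPM in Combination, 8.15, 5.98 and 7.41 CPM in Ipatasertib, 4.35, 3.44 and 3.99 CPM in Tazemetostat and 1.99, 1.5 and 2.26 CPM in DMSO libraries. The 4 groups did not overlap, and its log2 fold changes were 2.93, 1.90 and 1.01 (edgeR adjusted p = 3.52e-13, 5.07e-09 and 7.53e-05). NCRNA00188, now named SNHG29 and itself a small nucleolar RNA host, had log2 fold changes of 0.20 in Combination, 0.49 in Ipatasertib and -0.37 in Tazemetostat cells, all past the threshold.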

How the data were processed

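The authors deposited read counts per gene symbol for each of 12 libraries. Per the submitters' processing notes, the tools were STAR, HTSeq, SAMtools and DESeq2, on build hg19; their versions, order, annotation and strand setting are not stated. Per the labels, the kits were RNeasy Plus and Kapa Hyper Prep. The deposited normalized table was not used.

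Counts were fitted in R 4.3.3 with edgeR 4.0.16 (filterByExpr with minimum count 10, TMM factors, 1 robust quasi-likelihood fit over 12 libraries with 8 residual degrees of freedom, Benjamini-Hochberg over 14571 genes); the steps were tested on simulated data. Rows that name no gene stayed out of library sizes; genes held 60.5 to 68% of the counted total. CPM use the reads in genes times the TMM factor as library size. The 95% intervals are the estimate ± the SE times the t quantile at 8 degrees of freedom. The edgeR test has more degrees of freedom, so these intervals are wider than its p-values imply. Members and lists were chosen with earlier results of these data known. All members are named. Alternatives were DESeq2 1.42.0, RLE factors, library totals, no filter, 50 counts in 3 libraries, the 2 groups alone, the replicate letter as block, each library left out, and no A libraries. Same-letter libraries of Ipatasertib and DMSO deviated together (r = 0.422, 0.139 and 0.114 over 10980 genes of at least 5 CPM). These lie over the bound of 0.1 for pairing, but only 1 of the 3 Ipatasertib libraries matched its own letter best. No other comparison passed the bound for all 3 letters. Same-letter r was -0.618, -0.537 and -0.35 for Combination and Tazemetostat, and -0.209, -0.0434 and -0.243 for Combination and DMSO. Read ratios of a member under the filter pool the libraries of a group and carry no test. Some genes of the lists are not reported here by name.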

Additional observations from a re-analysis of the deposited data

Results flagged for a closer look

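The effect of ipatasertib differed between cells with and without tazemetostat for 4 members, by the interaction term of edgeR. MALAT1 differed by 0.87 on the log2 scale: ipatasertib changed it by 0.77 in tazemetostat-treated cells and by -0.10 in solvent-treated cells. NEAT1 differed by 0.63, with changes of 0.95 and 0.31. SNHG1 differed by 0.52, with changes of 1.01 and 0.49. MIR17HG differed by 1.08, with changes of 0.22 and -0.85. MALAT1 and SNHG1 passed under every alternative, each library left out included, with ranges of 0.76 to 1.02 and 0.46 to 0.60. NEAT1 kept a difference of 0.49 to 0.81 under the alternatives, but did not pass by DESeq2 (adjusted p = 0.0671), without the A libraries (edgeR adjusted p = 0.234) or in 5 of the 12 fits that left out 1 library. MIR17HG kept 0.92 to 1.29, but did not pass with the replicate letter as a block (edgeR adjusted p = 0.077), with library totals (edgeR adjusted p = 0.0551) or in 8 of those 12 fits. DESeq2 gave MIR17HG no adjusted p here, which is a missing value and not a failed test. It was also not tested under the filter of 50 counts in 3 libraries. Its range covers 18 settings, against 20 for MALAT1.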

How the results depend on the processing

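The counts of changed members stayed within 1.5 times for the 5 comparisons of 2 groups under every alternative run. For the interaction, 4 members passed in the main fit, all upward. DESeq2 called 2, and leaving out 1 library gave 2 to 6, with 2 without Combination B, DMSO C, Ipatasertib B or Ipatasertib C. Several alternatives, library totals and no A libraries among them, also passed 1 member downward. The cause was not tested. Of 72 called results of single members, none reversed and 14 did not pass under at least 1 alternative: 2 of MALAT1, 3 of NEAT1, 2 of MIRLET7BHG, 2 of SNHG4, and 1 each of MIR17HG, MIR181A2HG, SNHG9, SNHG10 and SNHG12. With the replicate letter as a block, 17, 14 and 13 members passed in Combination, Ipatasertib and Tazemetostat cells against DMSO, beside 17, 15 and 13 without it, 14 against 15 for Combination against Tazemetostat, 8 in both for Combination against Ipatasertib, and 3 against 4 for the interaction. Scaling by library totals moved the share of higher calls among all genes to 67.9% for Tazemetostat, against 54.9%, and to 33.6% for the interaction, against 49.8%. Depth limits MIR100HG, MIR497HG and the small nucleolar RNA rows most, since a Combination library had as few as 12981622 reads in genes.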
